A study of Rattus norvegicus with 24 samples.

Results

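The Golgi and vesicle traffic genes described here are those whose symbols mark them as Rab GTPases and their named partners, Arf1 to Arf6, coatomer subunits (Cop), Sec proteins, GDP dissociation inhibitors (Gdi), Vps proteins or sorting nexins (Snx). Of 20826 probe sets with exactly 1 gene symbol, 263 matched these names. They stand for 163 of the 14217 genes on the array, each represented by its brightest probe set. Their RNA was read on 24 Affymetrix arrays of the rat, in round spermatids and pachytene spermatocytes of Brown Norway rats. The groups were round spermatids of aged rats (18 months), round spermatids of young rats (4 months), pachytene spermatocytes of aged rats and pachytene spermatocytes of young rats, with 6 arrays each. The cells were freed from the testis with collagenase and trypsin and enriched on a STAPUT gradient, which sorts cells by how fast they sediment, to a stated purity above 83%, so each fraction holds other cells too. The animals carried no transgene and received no treatment that the labels name.

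Cargo leaves the endoplasmic reticulum in COPII-coated carriers, returns from the Golgi in COPI-coated ones, and is sorted further by Rab and Arf GTPases, retromer, sorting nexins, tethering complexes and the ESCRT machinery. Rab GTPases switch between an active and an inactive form and recruit the motors, tethers and sorting proteins of each compartment. In round spermatids the Golgi sends vesicles to the nucleus, where they fuse and spread into the acrosome, the enzyme-filled cap that the sperm needs at fertilisation. Pachytene spermatocytes, in the long prophase of meiosis, already make some acrosomal proteins in the mouse and the rat.

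The promoters of 4 members are shown, those of the members furthest apart in either direction between the fractions. Each is the 250 bases before the annotated start of the gene, from RefSeq on assembly GRCr8, and capitals mark a full cAMP response element.
Rab3il1 promoter (chr1:216087654-216087903, plus strand): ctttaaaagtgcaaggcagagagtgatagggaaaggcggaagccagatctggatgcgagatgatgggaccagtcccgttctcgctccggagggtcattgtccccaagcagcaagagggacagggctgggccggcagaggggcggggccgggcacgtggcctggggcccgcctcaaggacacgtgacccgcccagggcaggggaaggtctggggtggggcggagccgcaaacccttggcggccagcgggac
Vps37b promoter (chr12:38220723-38220972, plus strand): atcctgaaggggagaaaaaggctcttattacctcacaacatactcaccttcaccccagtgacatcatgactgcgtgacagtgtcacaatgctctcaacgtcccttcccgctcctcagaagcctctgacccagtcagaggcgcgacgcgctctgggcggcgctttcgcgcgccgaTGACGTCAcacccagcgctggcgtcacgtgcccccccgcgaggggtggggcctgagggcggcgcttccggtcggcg
Snx14 promoter (chr8:98270452-98270701, minus strand): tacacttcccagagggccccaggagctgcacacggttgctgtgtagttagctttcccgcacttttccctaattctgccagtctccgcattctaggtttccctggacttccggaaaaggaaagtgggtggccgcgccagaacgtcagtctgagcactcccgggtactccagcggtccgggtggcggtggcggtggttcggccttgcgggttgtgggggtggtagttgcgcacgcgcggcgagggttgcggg
Vps26a promoter (chr20:30976890-30977139, minus strand): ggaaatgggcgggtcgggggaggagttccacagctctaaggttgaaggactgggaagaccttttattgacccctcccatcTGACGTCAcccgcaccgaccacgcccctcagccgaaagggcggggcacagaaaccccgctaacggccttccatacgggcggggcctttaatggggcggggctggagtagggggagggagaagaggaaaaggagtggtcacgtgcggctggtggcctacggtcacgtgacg
Short motifs of factors with known roles in spermatogenesis were searched on both strands in the 250-base window of the 134 members that had one: the cAMP response element TGACGTCA, the MYB-type site AACTGNC and the X-box core GTTGCC. No overlap between matches of different motifs was removed. The response element lay 76 bases before the start of Vps37b, which was higher in round spermatids, and 170 bases before the start of Vps26a, which was lower, and no motif was found in the windows of Rab3il1 and Snx14. The response element was present in 3 of 59 members higher in round spermatids (5.08%) and 2 of 62 lower ones (3.23%), against 1.70% of 27457 promoters. The MYB-type site was present in 6.78% of the higher and 14.5% of the lower members, against 3011 of 27457 promoters. The X-box core was present in 8.47% of the higher members and in 0 of 62 lower ones, against 9.90% of all promoters. These shares describe letters in a window and were not tested.

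Levels between fractions are log2 signals on a joint scale, in which an offset was added to the linear pachytene values so that 45 control probe sets matched and all arrays were quantile normalised. The offset was needed because probe sets for a bacterial gene absent from the samples had a mean of 6.83 on the round spermatid arrays and 4.28 on the pachytene arrays, on the deposited log2 scale. The highest absent control reached 7.001 on the joint scale. Age comparisons used quantile normalisation within 1 fraction, on log2 values of their own. A gene was called where limma's adjusted p, over all 31042 probe sets tested, was under 0.05. Within a group, pairs of arrays had correlations of 0.996 to 0.999 in aged round spermatids, 0.978 to 0.997 in young ones, 0.996 to 0.998 in aged pachytene spermatocytes and 0.971 to 0.998 in young ones. Young rats 1, 10 and 11 had stood apart in an earlier look at these arrays, and the counts of members without them are given with each age comparison. Of the marker lists, 7 of 8 round spermatid markers and 12 of 12 late spermatid markers were higher in round spermatids, and 10 of 11 pachytene markers were lower. Sertoli markers were lower in round spermatids (13 of 15), while macrophage (9 of 10) and peritubular (6 of 8) markers were higher in them. The part these other cells play in the differences below was not tested.

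Round spermatids and pachytene spermatocytes differed in most of the traffic genes, in both directions and often in opposite directions among relatives of 1 family. In round spermatids 71 of the 163 genes were higher and 77 lower than in pachytene spermatocytes, while 15 did not pass the test. These are 43.6% and 47.2% of the members. Over all probe sets 46.9% were called higher and 38.3% lower, and over the brightest probe sets of all genes 49.7% and 38.6%. The share of members called in either direction was thus close to that of the array, with fewer higher and more lower. The median member differed by -0.02 on the log2 scale, against 0.03 over all probe sets. At least 2-fold differences were found for 9 higher and 21 lower members, against 6.81% and 7.83% of all probe sets. The split depended on the scaling: 49 were higher and 97 lower on the deposited scale after the offset, and 53 were higher and 97 lower with median centring. Under all 3 scalings 47 members were higher and 74 lower. In these bulk fractions fewer cells of a type and less RNA per cell cannot be told apart.

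**Figure D1:**
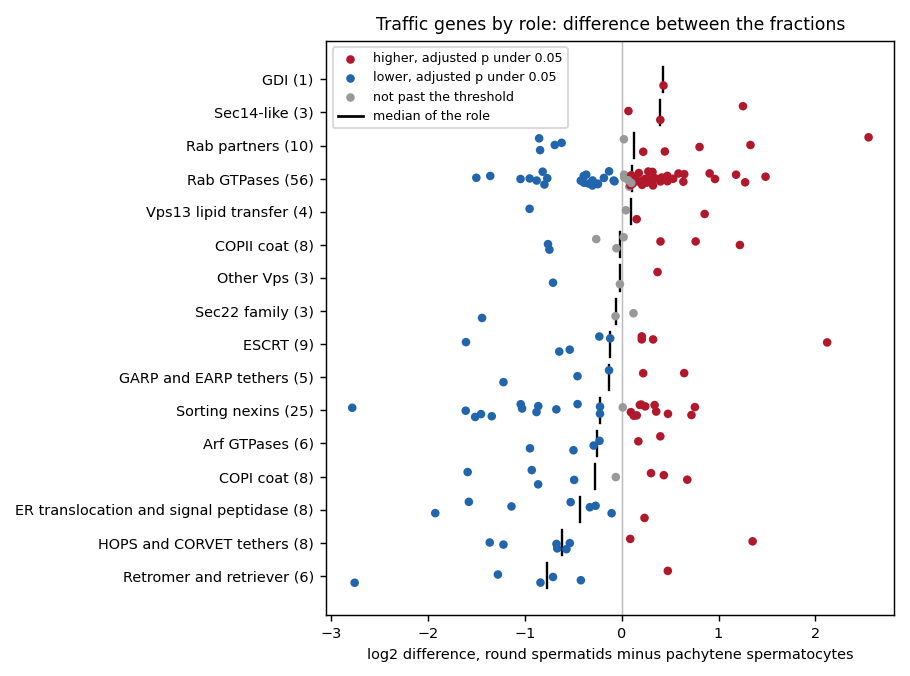
Log2 difference of each of the 163 traffic genes, round spermatids minus pachytene spermatocytes, by role (number of genes in brackets). Each point is a gene, coloured by the test (higher, lower or not past the threshold), and the black bar is the median of the role. The retromer and retriever role has the lowest median, and its member Vps26a lies at -2.76. The Rab partners hold the highest point, Rab3il1 at 2.55.

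The GTPases Rab3a, Rab3b, Rab3c and Rab3d, known for docking secretory granules, were each higher in round spermatids. The exchange factors Rab3il1 and Rab3ip, which are not Rab3 GTPases themselves, were higher too. Rab3il1 (1369305_at), an exchange factor that activates Rab8-type GTPases and binds Rab3a, spanned 11.17 to 11.86 over the 12 round spermatid arrays (median 11.47), against 8.49 to 10.10 (median 8.69) over the 12 pachytene arrays. The ranges did not overlap, and the highest pachytene array was from young rat 1. The gene was 5.86-fold higher in round spermatids (log2 difference 2.55, SE 0.12, adjusted p = 3.57e-15). Rab3c (1387147_at) lay between 8.42 and 9.13 in round spermatids (median 8.76), against 7.01 to 7.88 in pachytene spermatocytes (median 7.24), and was 2.80-fold higher. Its lowest pachytene array was at the level of the absent controls. Rab3b (log2 difference 0.64), Rab3a (0.41) and Rab3d (0.29) were also higher, as was Rab3ip (0.45), a second exchange factor for Rab8. These 6 genes were higher under all 3 scalings. Rab3gap1, the catalytic part of the complex that switches Rab3 off, was lower (-0.62, adjusted p = 1.97e-06), although a second probe set of it was higher by 0.13. Its partner Rab3gap2 did not pass the test over both ages (0.02); its difference was -0.16 in aged rats and 0.19 in young ones.

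Round spermatids had 30 of 56 Rab GTPases higher and 21 lower, close to the 49.7% and 38.6% of all genes. Of these, 23 and 18 held under all 3 scalings. Among the higher ones were Rab9a (1.27), which returns receptors from late endosomes to the Golgi, and Rab22a (1.18), a GTPase of early endosomes. Rab37 (0.96), linked to the release of secretory granules, and Rab35 (0.91), which acts in endocytic recycling, were higher too, though Rab37 read near the absent controls in pachytene spermatocytes (median 6.90). Rab12 (1371871_at), which sends receptors from recycling endosomes to lysosomes, lay between 8.14 and 8.87 in round spermatids (median 8.50), against 9.25 to 11.17 in pachytene spermatocytes (median 9.97). The arrays of the fractions did not overlap, and the gene was 2.83-fold lower in round spermatids (log2 difference -1.50, SE 0.08, adjusted p = 2.58e-14). Its second probe set read -1.07.

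The Rabs that are best known from acrosome formation did not move together. Rab27a (0.21) and Rab27b (0.47), which tether secretory granules, were higher along with Rab3a. Rab27a was near the absent controls in both fractions (7.16 to 7.42 in round spermatids, against 6.97 to 7.18 in pachytene spermatocytes). Rab27b was close to them in pachytene spermatocytes (7.20 to 7.33). Rab2a (-0.18), a Golgi GTPase found on the growing acrosome, Rab5a (-0.25) of early endosomes and Rab11a (-0.39) of recycling endosomes were lower. For Rab5a a second probe set was higher (0.43), and Rab7a, the late endosome GTPase, was higher by 0.11 on the joint scale and lower (-0.45) on the deposited scale. Rab6a, the GTPase of Golgi exit and retrograde transport, was represented by probe set 1372707_at, which was 2.56-fold lower in round spermatids (-1.36, adjusted p = 2.03e-14). Its other probe set, 1371103_at, was higher by 1.18, so the gene has no single direction here. Its paralog Rab6b was higher by 0.40.

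Partners of Rab11, the GTPase of recycling endosomes, were split. Rab11fip2 (1394607_at), which links Rab11 to a myosin motor, spanned 10.37 to 10.90 in round spermatids (median 10.47), against 9.03 to 9.48 in pachytene spermatocytes (median 9.23). All round spermatid arrays lay above all pachytene arrays, and the gene was 2.51-fold higher (log2 difference 1.33, SE 0.05, adjusted p = 9.60e-18). Rab11fip5 was higher by 0.80, while Rab11fip1 (-0.84) and Rab11fip3 (-0.85) were lower. Gdi2, which extracts inactive Rabs from membranes, was higher by 0.43.

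**Figure D2:**
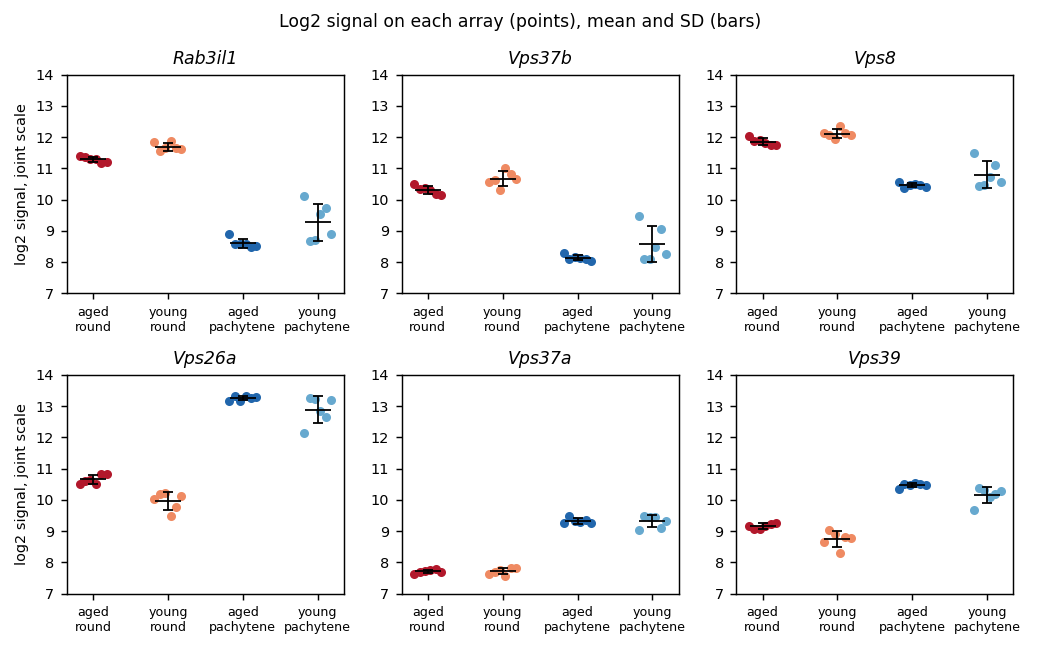
Log2 signal on the joint scale (y axis) for 6 traffic genes on every array, by group (x axis: aged and young round spermatids, aged and young pachytene spermatocytes; 6 arrays each). Points are arrays, with bars for the mean and SD. Rab3il1, Vps37b and Vps8 lie above the pachytene arrays in round spermatids, while Vps26a, Vps37a and Vps39 lie below them.

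Transcripts of protein entry into the endoplasmic reticulum were lower in round spermatids. Of 8 genes of the translocon and signal peptidase, 7 were lower, under all 3 scalings, and Sec62 was higher by 0.24 on the joint scale only. Among all genes 38.6% were lower and 49.7% higher on the joint scale. Sec61g (1371428_at), a small subunit of the Sec61 channel through which new proteins pass, spanned 11.25 to 11.72 in round spermatids (median 11.48), against 13.03 to 13.48 in pachytene spermatocytes (median 13.43). No array of one fraction reached the other, and the difference was 3.80-fold (log2 difference -1.93, SE 0.05, adjusted p = 2.80e-20). Sec61b, the other small subunit, was lower (-1.14), and the pore subunits Sec61a2 (-0.33) and Sec61a1 (-0.10) differed less. A second probe set of Sec61a1 was higher by 0.60. Sec63, a co-chaperone of the channel, read -1.58, with other probe sets at -1.23 and 0.25. The signal peptidase subunits Sec11c and Sec11a read -0.53 and -0.27. Sec22b (1377691_at), a SNARE that fuses carriers between the endoplasmic reticulum and the Golgi, lay at 7.85 to 8.24 in round spermatids (median 8.06), against 9.21 to 9.63 in pachytene spermatocytes (median 9.54), and was 2.72-fold lower (-1.44, SE 0.04). Its relatives Sec22a (0.12) and Sec22c (-0.06) did not pass the test.

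The cargo adaptors of the COPII coat differed in both directions, and their direction depended on the probe set. On the brightest probe sets Sec24b was higher in round spermatids by 0.76, while Sec24c (-0.75) and Sec24d (-0.76) were lower, although a dimmer second probe set of Sec24b read -0.51 and one of Sec24c read 0.50. Sec24 proteins choose the cargo of a COPII carrier. Sec16a (1391632_at), the scaffold of the sites where COPII forms, spanned 10.89 to 11.46 in round spermatids (median 11.15), against 9.72 to 10.40 in pachytene spermatocytes (median 9.87). On that probe set the fractions did not overlap and the gene was 2.33-fold higher (1.22, SE 0.07, adjusted p = 4.55e-14), but its second probe set, 1398959_at, was lower (-0.48.) The coat subunits Sec13 (-0.05, adjusted p = 0.143) and Sec23b (0.02, adjusted p = 0.576) did not pass the test, nor did Sec16b (-0.26, adjusted p = 0.0545). Sec31a was higher by 0.40 on the joint scale and by 0.00 on the deposited scale.

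Coatomer, the COPI coat, was split as well, with 3 subunits higher in round spermatids, 4 lower and Copg1 not past the test. Among all genes 49.7% were higher and 38.6% lower. The 7 coatomer calls held under all 3 scalings. Copg2 (1389031_at), which stands in for Copg1 in part of the coats, spanned 10.72 to 11.22 in round spermatids (median 11.04), against 11.94 to 12.79 in pachytene spermatocytes (median 12.70), a 3.01-fold difference (-1.59, SE 0.07). Copb2 (-0.93), Copz1 (-0.86) and Copa (-0.49) were lower, while Copb1 (0.68), Cope (0.43) and Copz2 (0.30) were higher. A second probe set of Copz1 was higher by 0.57. Of the Arf GTPases that recruit this coat and others, Arf5 (-0.95), Arf2 (-0.50), Arf1 (-0.29) and Arf3 (-0.23) were lower under all 3 scalings, Arf4 was higher by 0.40 and 0.17 on the joint and deposited scales, and Arf6, which acts at the plasma membrane, was higher by 0.17 on the joint scale and lower (-0.37) on the deposited scale. Arf3 was higher with the mean of its probe sets and was not lower in aged rats alone, so its direction is not settled.

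Retromer, which returns receptors from endosomes to the Golgi, was lower in round spermatids in each of its subunits, under all 3 scalings. Vps26a (1382099_at) spanned 9.50 to 10.82 in round spermatids (median 10.36), against 12.14 to 13.31 in pachytene spermatocytes (median 13.21). The arrays of the fractions lay more than 1 log2 unit apart, and the gene was 6.77-fold lower in round spermatids (-2.76, SE 0.11, adjusted p = 4.90e-17). Its second probe set, 1371705_at, read -2.74. Vps29 (-1.28), Vps35 (-0.84) and Vps26b (-0.42), the alternative to Vps26a, were lower. Of the retriever complex, a relative of retromer, Vps35l was lower (-0.71) and Vps26c was higher by 0.48 on the joint scale and lower (-0.09) on the deposited scale.

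Of 25 sorting nexins, which bind endosomal membranes by a PX domain, 13 were lower in round spermatids and 11 higher, against 38.6% and 49.7% of all genes. Of these, 13 and 6 held under all 3 scalings. Snx14 (1374692_at), a protein of the endoplasmic reticulum with a role in lipid handling, spanned 7.70 to 8.70 in round spermatids (median 8.25), against 10.60 to 11.19 in pachytene spermatocytes (median 10.99). The fractions did not overlap, and its 6.89-fold lower level (-2.78, SE 0.09, adjusted p = 3.29e-18) was the largest fall among the 163 genes. Snx25, of the same subfamily, was lower (-1.61.) Snx2 (-1.51), a membrane-bending partner of retromer, Snx4 (-1.45), which recycles receptors, and Snx27 (-1.34), a retromer adaptor, were lower, and the other retromer partners Snx6 (-0.88), Snx5 (-0.68) and Snx1 (-0.23) were too. Snx3 (0.76) and the X-linked Snx12 (0.72), both small sorting nexins with little beyond the PX domain, were higher.

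Subunits of the endosomal tethers differed in both directions. Vps8 (1380309_at), the part of the CORVET tether that binds Rab5 on early endosomes, spanned 11.75 to 12.35 in round spermatids (median 11.99), against 10.37 to 11.50 in pachytene spermatocytes (median 10.49), and was 2.55-fold higher (1.35, SE 0.09, adjusted p = 1.34e-12). Vps39 (1374068_at), a subunit of the HOPS tether of late endosomes and lysosomes, spanned 8.31 to 9.27 in round spermatids (median 9.05), against 9.68 to 10.54 in pachytene spermatocytes (median 10.37), and was 2.57-fold lower (-1.36, SE 0.07, adjusted p = 2.36e-14). No array of either gene overlapped between the fractions, and each has 1 probe set. Vps41, the other subunit found in HOPS only, was lower (-0.67.) The core that both tethers share was lower in Vps16 (-0.67), Vps33a (-0.57) and Vps11 (-0.54), while Vps18 was higher by 0.09 on the joint scale and lower (-0.33) on the deposited scale. For Vps33a, 2 other probe sets were higher. Vps33b, which works in a separate tether, was lower (-1.22.) In GARP, which receives carriers at the Golgi, Vps54 (-1.22), Vps52 (-0.46) and Vps53 (-0.13) were lower and Vps51 was higher by 0.65 on the joint scale and by 0.06 on the deposited scale. Vps53 was higher with the mean of its probe sets and was not lower in young rats alone.

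The ESCRT-I complex, which sorts membrane proteins into the interior of endosomes, holds 1 of several Vps37 subunits, and these differed in both directions between the fractions. Vps37b (1385449_s_at) spanned 10.14 to 11.01 in round spermatids (median 10.43), against 8.04 to 9.49 in pachytene spermatocytes (median 8.15), and was 4.35-fold higher (2.12, SE 0.12, adjusted p = 1.21e-13). A second probe set of Vps37b was higher by 1.28, and a dim other one read 0.05. Vps37a (1374472_at) spanned 7.57 to 7.81 in round spermatids (median 7.71), against 9.05 to 9.50 in pachytene spermatocytes (median 9.33), and was 3.05-fold lower (-1.61, SE 0.05, adjusted p = 5.14e-19). Neither gene had an array in the range of the other fraction. Vps37d was higher by 0.32, and Vps37c was higher by 0.21 on the joint scale and lower (-0.34) on the deposited scale. The ESCRT-I subunit Vps28 (-0.54) and the ESCRT-II subunits Vps36 (-0.23) and Vps25 (-0.12) were lower, the last near the absent controls. Of the paired ATPases that take ESCRT apart, Vps4a was higher by 0.21 and Vps4b lower (-0.65.)

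**Figure D3:**
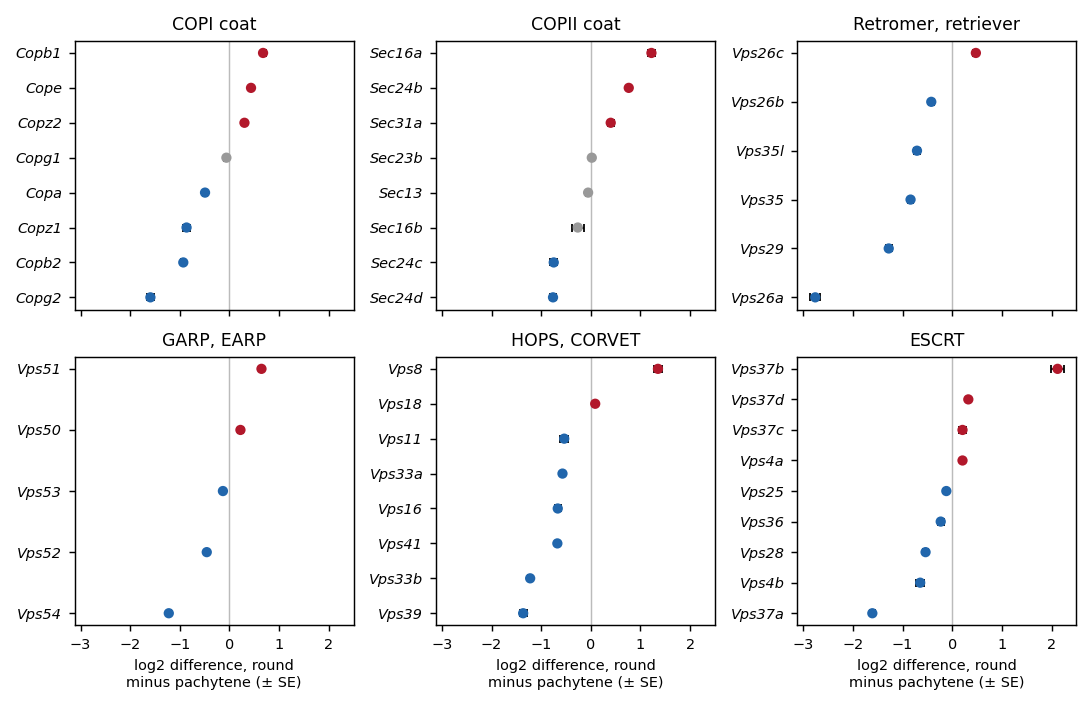
Log2 difference (x axis), round spermatids minus pachytene spermatocytes, with its SE, for each gene of 6 groups of traffic complexes. The HOPS and CORVET group includes Vps33b, which works in a separate tether. Red points are higher, blue points lower and grey points not past the test. Within COPI, COPII, ESCRT and the tethers some subunits lie on either side of 0, as with Vps37b at 2.12 and Vps37a at -1.61.

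Among the remaining genes, Sec14l1, which binds phospholipids, was higher in round spermatids (1.252), and so was Vps13c (0.86), a bridge that carries lipids between membranes, whereas Vps13b, a Golgi member of that family, was lower (-0.95). Vps72 carries a Vps name, but in mammals it is a chromatin remodelling subunit, and it read 0.37. Of the 4 X-linked members, Rab9a, Snx12 (0.72) and Rab33a (0.18) were higher, and Rab9b (-0.07) read near the absent controls in both fractions (6.84 to 6.94 in round spermatids, against 6.88 to 7.02 in pachytene spermatocytes).

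Both ages gave nearly the same picture in separate sets of rats. In aged rats alone round spermatids had 70 members higher and 79 lower, against 43.2% and 37.4% of all probe sets. In young rats alone 63 were higher and 71 lower, against 42.9% and 33.4%. The same direction was called at both ages for 126 members, 84.6% of those called in aged rats and 94.0% of those called in young rats. That is 77.3% of the members, against 74.7% of all genes on the array, where the shares were 87.1% of those called in aged rats and 92.8% of those called in young rats. Of 2 members called in opposite directions, Rab3gap2 was given above, and Rab31, a GTPase between the trans-Golgi and endosomes, was higher in round spermatids of aged rats (0.50) and lower in those of young rats (-0.41).

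Other genes of the pathway were also split, as were all genes (49.7% higher and 38.6% lower). Of 38 SNAREs and fusion factors 19 were higher in round spermatids and 16 lower, among them Nsf (1.22), the ATPase that separates SNAREs after fusion, and Vamp3 (-1.72), a SNARE of recycling endosomes. Of 42 tether genes (TRAPP, COG, exocyst and golgins) 18 were higher and 22 lower, with a median of -0.11, against 0.06 over all genes. Of 34 clathrin and adaptor genes 14 were higher and 17 lower, with Ap2a2 at 1.51 and Ap2m1 at -1.66, both of the adaptor of endocytosis. Of 39 other GTPase cycle and coat genes 15 were higher and 17 lower. Of 18 acrosome assembly genes 9 were higher and 9 lower. Acrbp, which packs proacrosin, was higher by 1.07, and Gopc, a Golgi protein without which the mouse acrosome does not form, was lower (-1.31). The lists share some genes, and Acrbp is also on the round spermatid marker list.

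In aged pachytene spermatocytes 43 members were higher and 27 lower than in young ones, and 93 did not pass the test, against 22.1% and 15.4% of all probe sets and 25.5% and 18.9% of all genes called in these directions. The median member differed by 0.06, and all probe sets by 0.05. The split depended on scaling: 8 were higher and 86 lower on the deposited scale, where the median probe set shifted by -0.24, and 76 were higher and 19 lower with median centring. Under all 3 scalings 8 were higher and 18 lower. Without young rats 1, 10 and 11, 32 were higher and 18 lower.

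The 8 members that fell most in aged pachytene spermatocytes were Rab31, Rab12, Snx18, Rab9a, Snx7, Vps26b, Rab11fip1 and Rab20. Rab12 spanned 9.38 to 9.82 in aged rats (median 9.70), against 10.46 to 11.27 in young rats (median 10.63), without overlap, and was 2.13-fold lower (-1.09, SE 0.13, adjusted p = 0.00028). Rab31 spanned 8.55 to 8.84 in aged rats (median 8.70), against 9.36 to 10.65 in young rats (median 9.65), also without overlap, and was 2.13-fold lower (-1.09, SE 0.18, adjusted p = 0.00103). Rab9a (-1.02), Rab20 (-0.88), a GTPase of maturing phagosomes, and Rab11fip1 (-0.94) fell as well. Vps26b (1379273_at) spanned 6.38 to 6.57 in aged rats (median 6.54), against 7.18 to 7.84 in young rats (median 7.38), and was 1.93-fold lower (-0.95, SE 0.10, adjusted p = 0.000231). Snx18, which shapes endocytic carriers, read -1.02 and Snx7 -0.997. None of these 8 genes had an aged array in the range of the young ones. They were chosen as the largest falls on these same arrays, so this lack of overlap is no separate result. It was not counted over all genes. All 8 were lower under all 3 scalings and without young rats 1, 10 and 11. Snx18 has 3 dimmer probe sets, of which 1 was higher in aged rats.

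Markers of other cells differed with age in the same pachytene arrays. Of 15 Sertoli markers 12 were lower and 1 higher in aged rats, and the mean of the list on an array ranged from 9.10 to 9.42 in aged rats, against 9.76 to 10.4 in young rats. Of 12 late spermatid markers 11 were lower and 0 higher, with array means of 12.9 to 13.5 in aged rats, against 13.4 to 14.5 in young rats. Of 9 spermatogonia markers 4 were lower and 0 higher, with array means of 7.12 to 7.33 in aged rats, against 7.50 to 7.84 in young rats. The Sertoli and spermatogonia means did not overlap between the ages, and no marker of these 3 lists was near the absent controls in these groups. Of the other lists, 3 of 8 round spermatid, 3 of 10 macrophage, 2 of 10 Leydig, 1 of 8 peritubular and 1 of 11 pachytene markers were lower, while 3 of 8 peritubular and 3 of 11 pachytene markers were higher, with 1 of 8 round spermatid and 1 of 10 macrophage markers. Their part in the age differences of the members was not tested. Of the 8 members that fell most, Rab12, Snx18, Snx7, Vps26b, Rab11fip1 and Rab20 were lower in round spermatids than in pachytene spermatocytes, Rab31 did not pass that test and Rab9a was higher. Among all genes 38.6% were lower and 49.7% higher in that comparison. Of the 4 X-linked members Rab9a alone fell in aged pachytene spermatocytes, whereas Snx12 (-0.16, adjusted p = 0.166), Rab33a (-0.03) and Rab9b (0.11) did not pass the test; of 445 X-linked genes on the array 239 were lower and 15 higher.

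The 8 members that rose most in aged pachytene spermatocytes were Sec16b, Sec22a, Vps37c, Rab8a, Rab36, Rab4b, Vps26c and Vps11. Sec22a (1369092_at) spanned 9.67 to 9.93 in aged rats (median 9.83), against 8.28 to 9.50 in young rats (median 8.99), without overlap, and was 1.84-fold higher (0.88, SE 0.19, adjusted p = 0.0045). Sec16b, a second scaffold of endoplasmic reticulum exit sites, spanned 9.19 to 9.56 in aged rats (median 9.38), against 7.30 to 9.01 in young rats (median 8.26), and was 2.25-fold higher (1.17, SE 0.28, adjusted p = 0.00768). Young arrays spread far more than aged ones for these genes. Rab8a (1370001_at), which carries vesicles from the Golgi to the cell surface, spanned 10.75 to 10.93 in aged rats (median 10.87), against 9.76 to 10.55 in young rats (median 10.27), and was 1.57-fold higher (0.65, adjusted p = 0.00346). Vps11 (0.52) and Vps37c (0.76) were higher too, and these 5 held under all 3 scalings. Vps26c (0.52), Rab36 (0.56), a Golgi GTPase, and Rab4b (0.56), of recycling endosomes, were higher without overlap between the ages but were not past the test on the deposited scale. All 8 passed the test without young rats 1, 10 and 11, with differences smaller by more than 1.5 times, at 0.48 for Sec16b, 0.44 for Sec22a, 0.43 for Vps37c, 0.34 for Rab8a, 0.31 for Vps26c, 0.26 for Rab4b, 0.24 for Rab36 and 0.22 for Vps11. Of 8 genes grouped as HOPS and CORVET, with Vps33b of a separate tether among them, 5 were higher and 0 lower. Of 5 GARP and EARP subunits 3 were higher and 0 lower. Among all genes 25.5% were higher and 18.9% lower. Under all 3 scalings 2 of those 5 and 0 of those 3 were higher.

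In round spermatids 34 members were higher in aged than in young rats, 22 were lower and 107 did not pass the test, against 8.65% and 8.48% of all probe sets and 12.5% and 12.4% of all genes. The median member differed by 0.02 and all probe sets by 0.00. On the deposited scale, where the median probe set shifted by 0.14, 99 were higher and 2 lower, and with median centring 19 were higher and 8 lower. Without young rats 1, 10 and 11, 14 were higher and 1 was lower. Under all 3 scalings 19 were higher, and Rab37 and Rab3il1 were lower.

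Vps26a had the largest rise in aged round spermatids. It spanned 10.29 to 10.64 in aged rats (median 10.41), against 9.20 to 9.96 in young rats (median 9.80), without overlap, and was 1.69-fold higher (0.76, SE 0.12, adjusted p = 0.00231). Its second probe set was higher by 0.66. Rab8a spanned 10.41 to 10.78 in aged rats (median 10.52), against 9.74 to 10.25 in young rats (median 9.95), and was 1.49-fold higher (0.58, SE 0.08, adjusted p = 0.00178). Sec22a (0.65), Vps11 (0.52), Rab3gap1 (0.43) and Sec16b (0.41) were higher, as they were in aged pachytene spermatocytes. Arf3 (0.54) and Arf1 (0.42), which recruit coats at the Golgi, were higher in aged round spermatids, and in pachytene spermatocytes they read -0.07 and -0.11 without passing the test. Sec16b missed the threshold without young rats 1, 10 and 11 (0.31, adjusted p = 0.0816) and without aged rat 10, and without those 3 young rats the differences of Sec22a and Rab3gap1 were 0.43 and 0.26. Rab3gap1 and Arf1 missed the threshold with median centring (adjusted p = 0.061 and 0.068). Of 11 pachytene markers 5 were higher and 0 lower in aged round spermatids, with array means of 11.6 to 11.8 in aged rats, against 11.2 to 11.6 in young rats, and their part was not tested. On their brightest probe sets Vps26a and Arf1 were lower in round spermatids than in pachytene spermatocytes, as were Arf3, Vps11 and Rab3gap1. Of the other risers named here, Sec22a and Sec16b did not pass that test and Rab8a was not lower. Among all genes 38.6% were lower in that comparison. In aged rats alone Arf3 was not lower.

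The 8 members that fell most in aged round spermatids were led by Rab3il1. It spanned 11.03 to 11.27 in aged rats (median 11.16), against 11.46 to 11.81 in young rats (median 11.57), without overlap, and was 1.38-fold lower (-0.47, SE 0.06, adjusted p = 0.00178). It held without young rats 1, 10 and 11 (-0.35, adjusted p = 0.015). Rab37 (-0.42), Vps37b (-0.40), Rab11fip2 (-0.31), Vps8 (-0.30), Snx12 (-0.25), Rab3c (-0.25) and Sec16a (-0.24) were lower. Each of these 7 missed the threshold without those 3 rats (-0.29 to -0.16, adjusted p = 0.068 to 0.16). Vps37b also missed it without young rat 11 or aged rat 9 or 10, and Snx12 without young rat 11 or 13 or aged rat 3, 8, 9 or 10. Vps37b, Rab11fip2, Vps8, Snx12, Rab3c and Sec16a missed it on the deposited scale. With median centring 6 of the members named for this comparison missed it: Rab3gap1, Arf1 and some of these falls. Without cross-hybridising probe sets 1 of the named members missed it. The second probe set of Sec16a was higher in aged round spermatids by 0.26. On their brightest probe sets all 8 genes were higher in round spermatids than in pachytene spermatocytes, against 49.7% of all genes. The second probe set of Sec16a was lower in that comparison, as given above. Of 15 Sertoli markers 7 were lower in aged round spermatids and 0 were higher, with array means of 8.15 to 8.39 in aged rats, against 8.47 to 8.81 in young rats, and of 12 late spermatid markers 3 were lower and 0 higher. Of 9 spermatogonia markers 2 were lower and 1 higher. Their part was not tested.

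**Figure D4:**
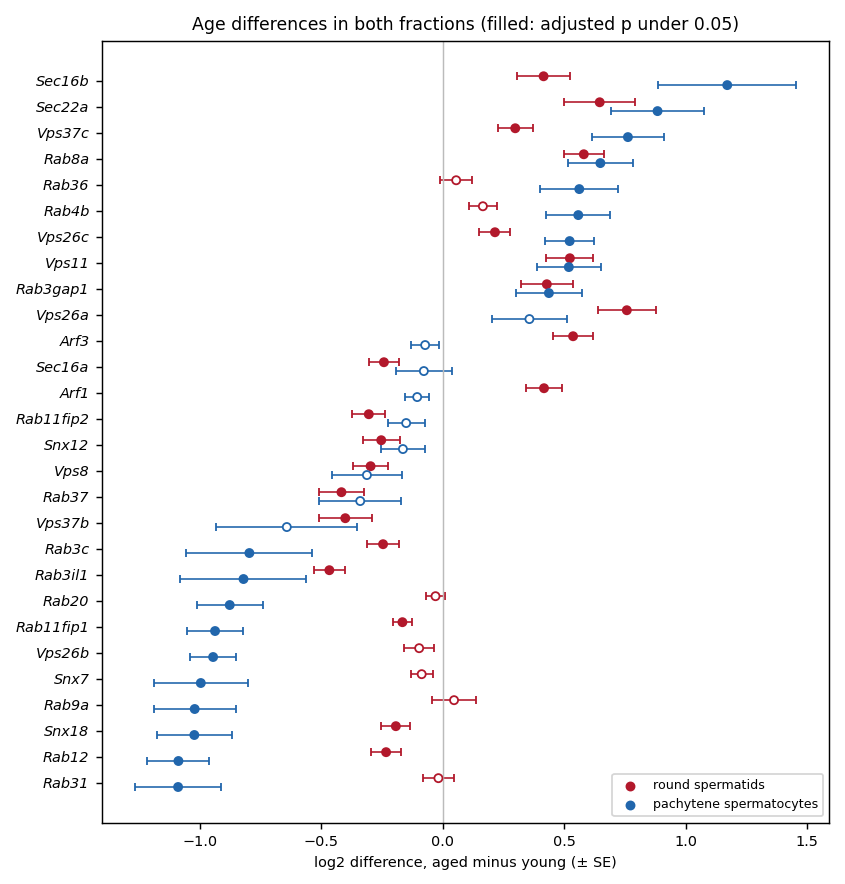
Log2 difference with age (x axis, aged minus young, with its SE) of the traffic genes with the largest age differences, in round spermatids (red) and pachytene spermatocytes (blue). Filled points passed the test. Sec22a, Rab8a and Vps11 lie right of 0 in both fractions, while Rab31 and Rab9a lie near 0 in round spermatids and at or below -1.02 in pachytene spermatocytes.

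Across both fractions 16 members were higher in aged rats in each, 8 were lower in each, and 2 were called in opposite directions. These are 9.82%, 4.91% and 1.23% of the members, against 8.22%, 6.58% and 0.943% of all genes. Without young rats 1, 10 and 11, 6 were higher in each, 0 were lower in each and 0 were called in opposite directions. The remaining members were called in 1 fraction or in neither (63). Those higher in both were Arf2, Rab23, Rab3gap1, Rab8a, Sec11a, Sec16b, Sec22a, Sec24c, Snx1, Snx27, Vps11, Vps16, Vps26c, Vps37c, Vps39 and Vps4a. Those lower in both were Rab11fip1, Rab12, Rab14, Rab3c, Rab3il1, Rab5c, Snx13 and Snx18. Of the opposite pair, Rab18 read 0.26 in round spermatids and -0.18 in pachytene spermatocytes, and Vps51 read -0.10 in round spermatids and 0.18 in pachytene spermatocytes. The other genes of the pathway are to be read against all genes, of which 12.5% were higher and 12.4% lower in aged round spermatids, and 25.5% and 18.9% in aged pachytene spermatocytes. Of 42 tethers 14 were higher and 2 lower in aged round spermatids, and 20 were higher and 4 lower in aged pachytene spermatocytes. Of 38 SNAREs and fusion factors 7 were higher and 2 lower in aged round spermatids, and 14 were higher and 7 lower in aged pachytene spermatocytes. Of 34 clathrin and adaptor genes 11 were higher and 5 lower in aged round spermatids, and 15 were higher and 9 lower in aged pachytene spermatocytes. Of 39 other GTPase cycle and coat genes 4 were higher and 5 lower in aged round spermatids, and 13 were higher and 6 lower in aged pachytene spermatocytes. Of 18 acrosome assembly genes 7 were higher and 2 lower in aged round spermatids, and 8 were higher and 2 lower in aged pachytene spermatocytes; Gopc was higher in both (0.52 and 0.43). The share of a list that was higher ran between 10.3% (GTPase cycle and coat genes) and 38.9% (acrosome assembly) in aged round spermatids and between 33.3% and 47.6% in aged pachytene spermatocytes. The share that was lower ran between 4.76% and 14.7% in aged round spermatids and between 9.52% and 26.5% in aged pachytene spermatocytes. These list counts were made on the quantile normalised scale alone.

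The age difference itself was compared between the fractions on the joint scale. In 20 members it was higher in round spermatids than in pachytene spermatocytes and in 13 it was lower, against 5.98% and 7.03% of all probe sets and 7.32% and 8.83% of all genes. On the deposited scale, where the median difference was 0.27, 131 were higher and 0 lower, and with median centring 21 were higher and 19 lower. Under all 3 scalings 15 were higher and 0 were lower. Without young rats 1, 10 and 11, 16 were higher and 7 lower. Rab31 (0.90, SE 0.19, adjusted p = 0.00467), Rab12 (0.80, SE 0.16, adjusted p = 0.00275), Rab11fip3 (0.66), Snx3 (0.64) and Rab9a (0.62) had the largest positive differences. Each of these 5 fell in aged pachytene spermatocytes; in round spermatids Rab12 fell by less (-0.23) and the other 4 did not pass the test. Without those 3 rats Rab9a missed the threshold (0.35, adjusted p = 0.0502), and the differences of Rab31 and Snx3 were 0.53 and 0.30. Snx3 missed it with median centring (adjusted p = 0.0691). Rab11fip3 binds Rab11 and acts in cytokinesis. In the other direction Copg1 (-0.36), Vps28 (-0.36), Rab3ip (-0.35) and Rab3gap2 (-0.35) led, of which Rab3ip and Rab3gap2 were higher in aged pachytene spermatocytes (0.24 and 0.32). Rab37 was fitted at -0.44, but its pachytene arrays (6.82 to 7.27) lay at the level of the absent controls, so its age effect in that fraction was not measured and no difference between the fractions can be read. Copg1 (-0.27, adjusted p = 0.063) and Vps28 (-0.10, adjusted p = 0.249) missed the threshold without the 3 young rats, and Vps28 also missed it without young rat 10 or 11 alone or aged rat 3, 5, 8, 9 or 10 alone. On the deposited scale none of these 5 was past the threshold, and Copg1, Rab3ip and Rab3gap2 were positive.

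**Figure D5:**
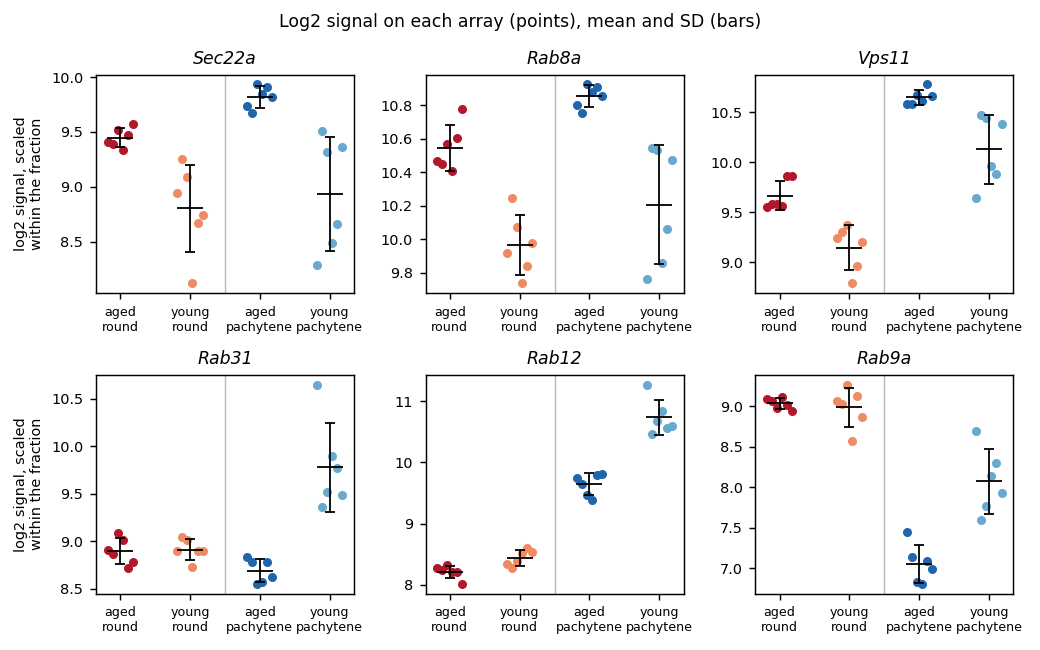
Log2 signal, scaled within each fraction (y axis; levels of the fractions are not on 1 scale), for 6 traffic genes on every array by group (x axis; 6 arrays each, aged left of young). Points are arrays, with bars for the mean and SD. Sec22a, Rab8a and Vps11 are higher in aged rats in both fractions, and Rab31, Rab12 and Rab9a are lower in aged pachytene spermatocytes without overlap.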

How the data were processed

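Total RNA of 24 germ cell samples was hybridised to Affymetrix arrays as biotinylated cRNA, per the labels' protocols. The deposited values are log2 signals for 31099 probe sets; summarising program: not given in the sources used here. The titles number the samples; the number is read as the rat, and nothing further says that each came from an animal of its own, so p-values measure the spread between these samples. The labels hold no batch information.

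Probe sets took their gene symbols from the platform annotation: 20826 have 1 symbol, 436 several and 9780 none. The 57 control probe sets were left out, and 31042 were tested with limma 3.58.1 (lmFit and eBayes, R 4.3.3, Benjamini-Hochberg over all of them, threshold 0.05). For levels between fractions an offset of 84.5 was added to the linear pachytene values, so that 45 control probe sets differed by 0.00 ± 0.17 in place of 0.61 ± 0.77 (SD over probe sets), and all arrays were quantile normalised. It compresses folds of dim genes. Age was fitted within each fraction after quantile normalisation there, and the difference between the age effects on the joint scale over 4 groups. Of 163 members 161 were found in RefSeq on GRCr8, and Vps37c and Vps51 were not matched. In 70 members several probe sets exist, and the brightest was used.

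Named genes are the 12 largest differences in each direction between fractions, the 8 largest for age and the 5 largest for the difference, each past the threshold, and all measured subunits of the complexes described. The members, gene lists and tests were chosen with earlier results of these data known. The fits were tested on simulated data. Alternatives were the deposited scale, median centring, no dim or no cross-hybridising probe sets, array weights, eBayes with trend and robust settings, another or no offset, the mean of a gene's probe sets, each age alone, a 2-fold threshold, the replicate number as a block, and leaving out 1 rat or young rats 1, 10 and 11. The number of arrays limits the precision.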

Additional observations from a re-analysis of the deposited data

Results flagged for a closer look

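The age effect of 10 named members differed between the fractions by the test of the difference itself (log2, the effect in round spermatids minus that in pachytene spermatocytes, on the joint scale). It was 0.90 for Rab31, 0.80 for Rab12, 0.66 for Rab11fip3, 0.64 for Snx3 and 0.62 for Rab9a. It was -0.44 for Rab37, -0.36 for Copg1, -0.36 for Vps28, -0.35 for Rab3ip and -0.35 for Rab3gap2, and none of these negative values passed the test on the deposited scale. Rab37 lay at the level of the absent controls in pachytene spermatocytes. Without young rats 1, 10 and 11, 4 of the 10 missed the threshold: Rab9a (0.35), Rab37 (-0.36), Copg1 (-0.27) and Vps28 (-0.10).

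Single arrays stood apart from the other 5 of their group in 26 of 380 groups tested over 95 named genes, by the gap to the nearest array over the range of the group; chance alone flags about 1 group in 20. Levels here are log2 signals scaled within the fraction. Of the 26, 7 came from young rat 1 in pachytene spermatocytes: 11.4 for Snx25, 10.4 for Snx2, 9.80 for Vps53 and 9.11 for Vps36 were below the others, and 5.96 for Rab37, 10.5 for Arf6 and 12.8 for Gdi2 were above them. Young rat 11 was above the others in pachytene spermatocytes for Vps33a (7.50) and Rab33a (6.93) and in round spermatids for Sec24b (11.3). Young rat 10 was below the others in round spermatids for Snx3 (12.8), Sec23b (9.76) and Rab2a (10.8). In aged pachytene spermatocytes rat 2 was above the others for Rab3il1 (8.92) and below them for Vps39 (10.5), Rab3gap1 (11.6) and Rab11a (12.8). In the same group rat 3 was above the others for Vps37a (9.65) and rat 9 for Rab2a (11.5), and rat 8 was below them for Snx12 (7.64). In aged round spermatids rat 2 was above the others for Vps28 (11.1) and below them for Vps4b (8.32), and rat 10 was above them for Rab3a (8.11) and below them for Snx18 (7.62). Rat 8 was below the others there for Snx4 (8.35) and rat 5 for Rab11fip3 (7.74).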

How the results depend on the processing

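The count of members between the fractions changed little with the rat left out (71 to 73 higher, 77 to 79 lower), and with a fold of at least 2 it was 9 higher and 21 lower. Single genes turned round as follows. On the deposited scale Sec62 read -0.050, Arf6 -0.37, Vps18 -0.33, Vps37c -0.34, Rab7a -0.45 and Rab9b 0.081, and with median centring Sec62 -0.030, Arf6 -0.35, Vps18 -0.31, Vps37c -0.32, Rab7a -0.43 and Rab9b 0.10. With the mean of a gene's probe sets Sec61a1 read 0.17, Arf3 0.28, Vps53 0.082, Vps18 -0.11, Rab5a 0.092 and Rab7a -0.31 between fractions, and Sec16a read 0.0076 for age in round spermatids; these genes have probe sets that point in opposite directions. In aged rats alone Arf3 read 0.048 and Vps18 -0.022, and in young rats alone Vps53 read 0.0076. Age counts depended most on scaling. In aged pachytene spermatocytes 8 were higher and 86 lower on the deposited scale and 76 higher with median centring. In aged round spermatids 99 were higher and 2 lower on the deposited scale, 19 higher and 8 lower with median centring, and 14 higher and 1 lower without young rats 1, 10 and 11. For the difference between the age effects 131 were higher and 0 lower on the deposited scale, where Copg1 read 0.18, Rab3ip 0.039 and Rab3gap2 0.12; 8 were lower with trend and robust and 7 without those 3 rats. The cause was not tested. Leaving out 1 rat gave 31 to 49 higher and 19 to 30 lower in aged pachytene spermatocytes, 26 to 46 higher and 12 to 22 lower in aged round spermatids, and 17 to 22 higher and 5 to 15 lower for the difference. The lower count in round spermatids was 14 without young rat 11 or aged rat 8 and 12 without aged rat 9 or 10. That of the difference was 8 without young rat 10, 5 without aged rat 3, 5 or 8, and 6 without aged rat 9 or 10. Samples of the same number in both fractions correlated at -0.08 to 0.38 after removal of group means, and 3 of 12 matched their own number best. This check does not settle whether the samples of a number are paired. The main fits did not take the number as a pairing, and the fit with it as a block was an alternative. With a replicate block 71 were higher and 78 lower between fractions, 40 and 28 with age in pachytene spermatocytes, 34 and 22 in round spermatids, and 20 and 13 for the difference. Signals of dim members such as Rab9b, Vps25 and Sec14l3 lie near the absent controls, which limits their folds.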
